A study of Bos taurus with 68 samples.

Results

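LOC327709, a mu class glutathione transferase of cattle, was followed in the liver of cows around calving together with every other glutathione transferase listed on the same cDNA array. The members were all clones whose updated gene symbol is LOC327709 or starts with GSTA, GSTM, GSTP, GSTT, GSTK, GSTO or GSTZ. This gave 4 clones of 5693, 1 each for LOC327709, GSTK1, GSTZ1 and GSTO1. No alpha, pi or theta class clone and no other mu class clone was among the listed clones. LOC327709 was selected on its day pattern in these very arrays, so its values between days are a description with no test. Tests are given for the other transferases.

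Liver RNA of 5 cows (6934, 6983, 7079, 7186 and 7188) was hybridised with a reference standard RNA on 2-colour cDNA arrays, a pair of arrays with exchanged dyes for each cow and day. Sampling days relative to calving were -65, -30, -14, 1, 14, 28 and 49, so that 3 days lie before calving (prepartum) and 4 after it. In every fitted contrast of lactation against prepartum, lactation is the mean of days 14, 28 and 49, and day 1 is left out. The larger of the 2 deposited tables holds 30 cow-days, with all 5 cows on days -65, -30, 1 and 28. Days -14 (cows 6983, 7186 and 7188) and 14 (cows 6983, 7079 and 7186) have 3 cows each, and day 49 has 4 (cow 6983 has none). The lactation against prepartum difference of a single cow averages only the days that cow has in this table. Those days differ between cows, and only cow 7186 has all 7. The smaller table, from another array print, holds 4 further cow-days. The labels name no treatment, breed, age or diet.

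Glutathione transferases join the tripeptide glutathione to reactive and foreign compounds, which makes these compounds water soluble and easier to excrete. The liver is the main site of this conjugation. Mu class enzymes are cytosolic and act on many electrophiles, kappa class GSTK1 is found in mitochondria and peroxisomes, zeta class GSTZ1 isomerises maleylacetoacetate in tyrosine breakdown, and omega class GSTO1 reduces dehydroascorbate and mixed disulphides. Around calving the liver of a cow turns to supplying glucose for milk.

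Values are log2 ratios of liver over the reference RNA, each array centred on its median and the exchanged pair averaged. The direction of the ratio is only likely, because the labels name the dyes but not the numerator. With the other numerator every sign below turns, also of differences between days. Its basis is known tissue genes: the hepatocyte genes TF, APOA1, ASGR2 and ASS1 had ratios above 0 (4 of 4), and COL1A2, VIM and STMN1 had ratios below 0 (3 of 5 genes of other tissues, DES and MBP being the exceptions). Between 14607 and 16288 rows were measured on each array of the larger table. With the signs as deposited, the exchanged arrays of a pair correlated below 0 over all rows in 25 of 30 cow-days. They did not in cow 6934 on day 49, cow 6983 on day 14, cow 7079 on day 1, cow 7186 on day 14 and cow 7188 on day 49. This r ran from -0.53 (cow 6983 on day 28) to 0.18 (cow 7188 on day 49). Some of the 25 lay close to 0, such as cow 6934 on day 28 (-0.003). In the smaller table r ran from -0.67 to -0.45.

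The LOC327709 clone gave one of the higher ratios on the array. Its mean over cows was 3.22 ± 0.30 (SD, n = 5 cows), 9.34-fold above the reference RNA, which placed it 27th from the highest of 5280 tested clones. With the other numerator it is 9.34-fold below and 27th from the lowest, and the ranks of level given for GSTK1 and GSTZ1 turn likewise. It lay above the reference in 30 of 30 cow-days, and all 120 of its 120 spot values were measured. Its 2 spots moved together over the cow-days (r = 0.97 after each cow's mean was taken off, against a median clone at 0.67).

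On day -65 the LOC327709 log2 ratios of cows 6934, 6983, 7079, 7186 and 7188 were 3.42, 4.29, 3.64, 3.89 and 3.53. On day -30 the cows, in the same sequence, stood at 3.56, 3.22, 4.34, 5.19 and 3.93. On day -14 cows 6983, 7186 and 7188 stood at 2.95, 4.11 and 3.05. In the larger table no prepartum value was under 2.95.

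On day 1 the LOC327709 log2 ratios of cows 6934, 6983, 7079, 7186 and 7188 were 2.02, 1.90, 2.52, 2.76 and 2.15, all under every prepartum value of that table. On day 14 cows 6983, 7079 and 7186 stood at 2.48, 3.35 and 2.61. On day 28 the values of the 5 cows were 2.93, 3.54, 4.03, 3.75 and 3.48, all above those of day 1. On day 49 cows 6934, 7079, 7186 and 7188 stood at 2.78, 2.30, 3.46 and 2.26, which overlapped the values of days 1, 14 and 28.

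**Figure D1:**
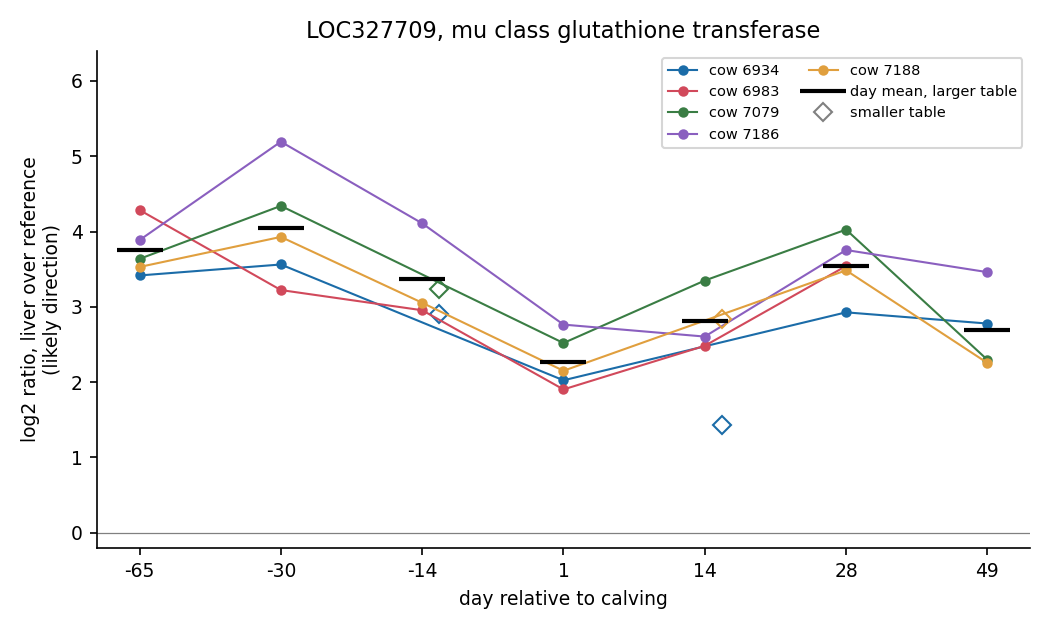
Log2 ratio of liver over reference (likely direction) of LOC327709 by day relative to calving, with evenly spaced days. Filled points joined by lines are cows of the larger table, black bars are day means and open diamonds are cow-days of the smaller table, which was scaled on its own. All 5 cows lie lower on day 1 (1.90 to 2.76) than on day -30 (3.22 to 5.19).

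The day means of LOC327709 were 3.75 ± 0.35 on day -65, 4.05 ± 0.76 on day -30, 3.37 ± 0.64 on day -14, 2.27 ± 0.36 on day 1, 2.81 ± 0.47 on day 14, 3.55 ± 0.41 on day 28 and 2.70 ± 0.56 on day 49 (SD over 3 to 5 cows). In the order of these means, day -30 stood highest, then days -65, 28, -14, 14 and 49, and day 1 lowest. No neighbours in that order differed by more than the larger of their SDs. Day 1 was the lowest day of 3 cows, day 49 that of cow 7079 and day 14 that of cow 7186. Day -30 was the highest day of 4 cows and day -65 that of cow 6983.

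Within cows LOC327709 was 1.78 lower on the log2 scale on day 1 than on day -30, a 3.43-fold difference, lower in 5 of 5 cows (from -2.43 in cow 7186 to -1.32 in cow 6983). The 2 days did not overlap, and 8 of 5101 clones with all 10 values (0.157%) had every day 1 value below every day -30 value. LOC327709 was selected on these days, so nothing is read from that share. Day 28 lay 1.27 above day 1, a 2.42-fold difference, higher in 5 of 5 cows (0.90 to 1.64). Lactation lay 0.77 below the prepartum days, a 1.70-fold difference, in 5 of 5 cows (-1.12 to -0.48). That difference was -0.43 with each cow-day divided by its slope on the mean profile of all cow-days. At an adjusted p under 0.05 over all clones, 1 of 5280 clones (0.0189%) was called for the day effect and 1 of 5280 (0.0189%) for day 1 against day -30. Both calls are LOC327709 itself, which is how it was chosen, so nothing is read from them.

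The day 1 difference of LOC327709 was present in both dye orientations. LOC327709 was selected on the average of these orientations, so nothing is read from their agreement. On arrays with liver in Cy5 the cows averaged 2.74 ± 0.39 on day 1 and 4.37 ± 0.78 on day -30 (2.36 to 3.30 against 3.64 to 5.37). On arrays with liver in Cy3 they averaged 1.81 ± 0.68 on day 1 and 3.72 ± 0.99 on day -30 (1.00 to 2.55 against 2.78 to 5.01). The Cy5 arrays read higher in 26 of 30 cow-days, by a median of 0.77. The orientations correlated over cow-days at 0.53 after each cow's mean was taken off (median clone 0.13).

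**Figure D2:**
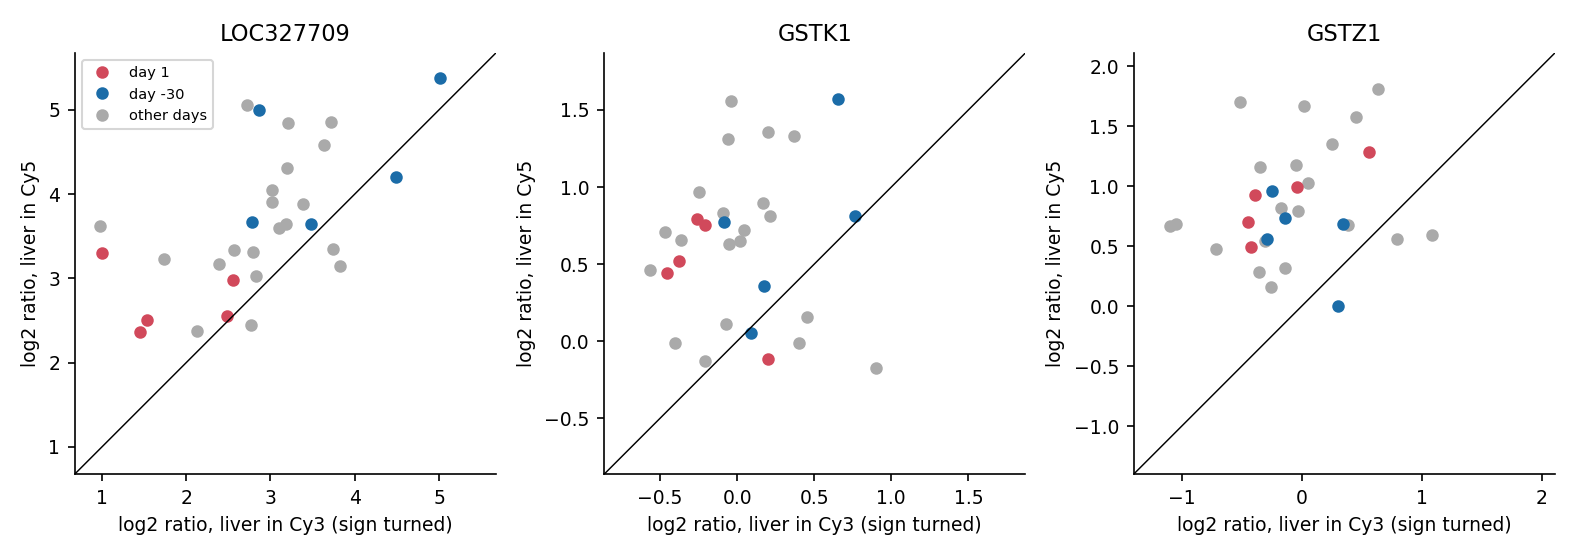
Log2 ratios of LOC327709, GSTK1 and GSTZ1 on the array with liver in Cy5 (y axis) against the exchanged array with liver in Cy3, sign turned (x axis), 1 point per cow-day of the larger table, with day 1 in red, day -30 in blue and the line of equality. Day 1 and day -30 of LOC327709, which was selected on these days, separate on both axes. Those of GSTK1 and GSTZ1 overlap on both axes.

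The smaller table did not enter the choice of LOC327709. It holds days 14 and -14 of cow 6934, where the log2 ratio was 1.43 on day 14 and 2.91 on day -14, a difference of -1.48. Of 5580 clones measured on both days, 99 (1.77%) had a difference as low or lower. The difference was -1.82 with liver in Cy5 and -1.14 with liver in Cy3. Cow 7079 stood at 3.24 on day -14 and cow 7188 at 2.84 on day 14. With 1 cow on both days this comparison has no replicate.

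The array clone is a cDNA, and mu class genes resemble each other in sequence. In the ARS-UCD2.0 gene table LOC327709, which carries GSTM1 as a synonym, has GSTM3, GSTM2 and LOC783879 as neighbours. Whether transcripts of these genes bind the clone was not tested.

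GSTK1, the kappa class enzyme, lay close to the reference RNA, at a mean of 0.31 ± 0.18 (SD, n = 5 cows), 936th from the highest of 5280 clones. Its day means were 0.50 ± 0.26 on day -65, 0.52 ± 0.42 on day -30, 0.25 ± 0.20 on day -14, 0.13 ± 0.13 on day 1, 0.11 ± 0.28 on day 14, 0.47 ± 0.28 on day 28 and 0.15 ± 0.33 on day 49. Days 14, 1 and 49 were the lowest and days -30, -65 and 28 the highest, and every neighbouring pair in that order differed by less than the larger of its SDs.

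Cows 6934, 6983, 7079, 7186 and 7188 had GSTK1 log2 ratios of 0.072, 0.040, -0.005, 0.27 and 0.27 on day 1, against 0.073, 0.27, 0.79, 1.11 and 0.34 on day -30. All 5 were lower on day 1, but cow 6934 by less than 0.01 and the groups overlapped. The fitted difference was -0.39 ± 0.16 (SE, 95% interval -0.71 to -0.06, limma adjusted p = 0.526). On the arrays with liver in Cy5 alone it was -0.24.

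On day 28 GSTK1 stood 0.34 ± 0.16 above day 1 (SE, 95% interval 0.02 to 0.66, limma adjusted p = 0.622), higher in 5 of 5 cows. Lactation stood 0.22 ± 0.10 below the prepartum days (SE, 95% interval -0.43 to -0.0035, limma adjusted p = 1.00), lower in 5 of 5 cows. That difference was -0.07 without centring and -0.12 without the cow-days whose arrays did not oppose. The day effect of GSTK1 over all 7 days did not pass the threshold (limma F test, adjusted p = 0.895). With array quality weights it did, at adjusted p = 0.0095 with weights estimated by residual maximum likelihood, which did not converge, and at 0.0467 with weights estimated gene by gene. These weights called 1026 of 5280 clones (19.4%) and 176 of 5280 (3.33%).

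GSTZ1, the zeta class enzyme, averaged 0.38 ± 0.19 (SD, n = 5 cows), 781st from the highest of 5280 clones. Its day means were 0.61 ± 0.44 on day -65, 0.29 ± 0.16 on day -30, 0.39 ± 0.51 on day -14, 0.37 ± 0.35 on day 1, 0.09 ± 0.40 on day 14, 0.70 ± 0.23 on day 28 and 0.08 ± 0.22 on day 49. By these means day 28 stood highest and day 49 lowest, with day 1 in the middle. No neighbours in that order differed by more than the larger of their SDs.

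Cows 6934, 6983, 7079, 7186 and 7188 had GSTZ1 log2 ratios of 0.27, 0.92, 0.13, 0.032 and 0.48 on day 1, against 0.15, 0.36, 0.52, 0.14 and 0.29 on day -30. Cows 6934, 6983 and 7188 were higher on day 1 and cows 7079 and 7186 lower. The difference was 0.08 ± 0.20 (SE, 95% interval -0.33 to 0.48, limma adjusted p = 0.924). It turned to -0.05 without cow 6983 and to -0.14 on the arrays with liver in Cy3 alone.

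GSTZ1 stood 0.34 ± 0.20 above day 1 on day 28 (SE, 95% interval -0.07 to 0.74, limma adjusted p = 0.693), higher in 4 of 5 cows. Lactation against prepartum gave -0.12 ± 0.13 (SE, 95% interval -0.39 to 0.15, limma adjusted p = 1.00), with 2 of 5 cows lower. Without cow 6983 it was 0.02. The day effect did not pass the threshold (limma F test, adjusted p = 0.954). It did with the same array weights, at 0.0178 by residual maximum likelihood, which did not converge and called 19.4% of clones, and at 0.0498 gene by gene, which called 3.33%.

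**Figure D3:**
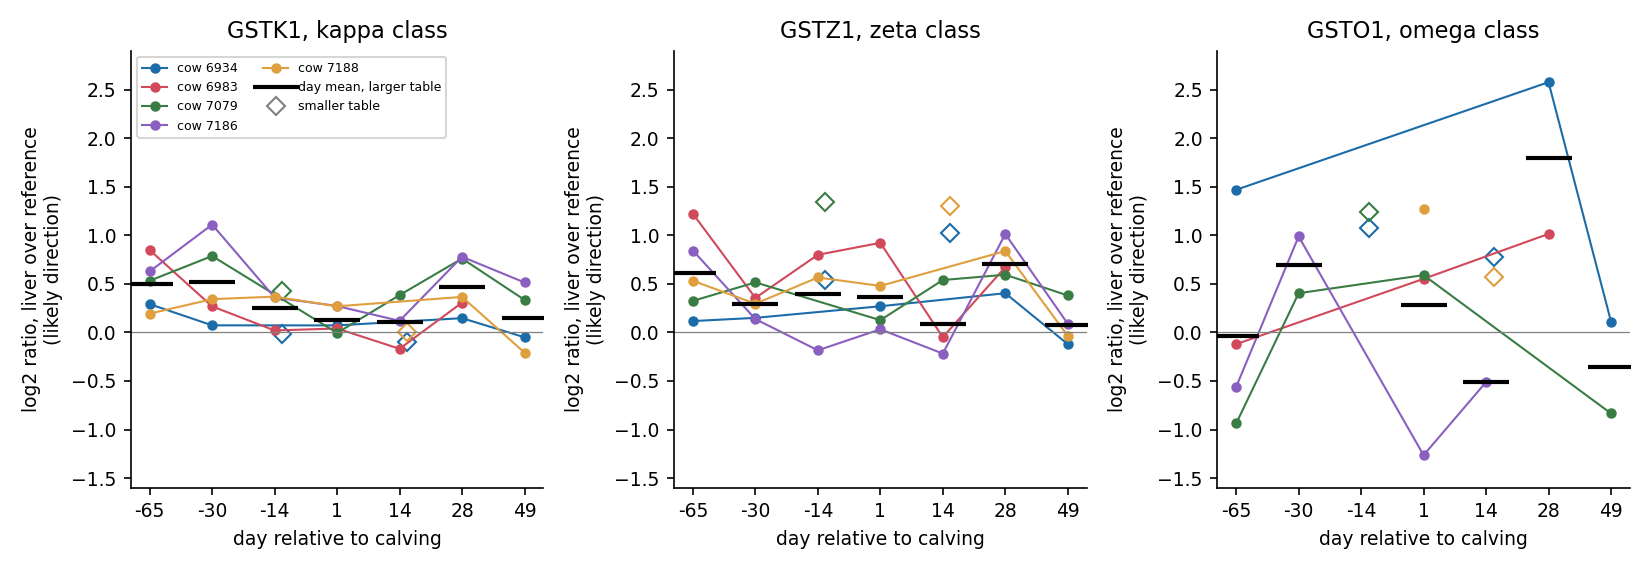
Log2 ratios of liver over reference (likely direction) of GSTK1, GSTZ1 and GSTO1 by day relative to calving, with filled points joined by lines for cows of the larger table, black bars for day means and open diamonds for cow-days of the smaller table, which was scaled on its own. GSTK1 and GSTZ1 stay between -0.22 and 1.22 in the larger table, and GSTO1 has an averaged value in 15 of 30 cow-days.

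GSTO1, the omega class enzyme, had 56 of 120 spot values in the larger table. It was measured on both arrays of the pair in 15 of 30 cow-days, on 1 array in 14 and on neither in 1. Only the 15 gave an averaged value, so GSTO1 fell short of the 3 cows on each day that a test required. Without that requirement limma gave -0.94 ± 0.61 for day 1 against day -30 (SE, adjusted p = 0.763) and 0.79 ± 0.53 for day 28 against day 1 (SE, adjusted p = 0.810). These estimates rest on averaged values of 2 cows on day -30 and 2 on day 28. Cow 7079 stood at 0.59 on day 1 and 0.40 on day -30, cow 7186 at -1.26 and 0.99. Only cow 6983 had both day 1 (0.55) and day 28 (1.01). The averaged log2 ratios of GSTO1 ran from -1.26 in cow 7186 on day 1 to 2.58 in cow 6934 on day 28. The 2 orientations behind an averaged value differed by a median of 2.28 in size. In cow 7186 on day 1 they were -3.17 (liver in Cy5) and 0.64 (liver in Cy3). The orientations correlated at -0.23 over those 15 cow-days, so they did not track each other. In the smaller table all 4 cow-days had a value, 1.07 on day -14 and 0.77 on day 14 in cow 6934, 1.24 on day -14 in cow 7079 and 0.57 on day 14 in cow 7188.

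In the smaller table GSTK1 of cow 6934 stood at -0.09 on day 14 and -0.02 on day -14, and GSTZ1 at 1.02 on day 14 and 0.54 on day -14. The LOC327709 difference of -1.48 in these samples therefore went with -0.08 in GSTK1 and 0.49 in GSTZ1. Cow 7079 had 0.43 for GSTK1 and 1.34 for GSTZ1 on day -14, and cow 7188 had 0.006 and 1.30 on day 14.

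Of the 2 other transferases tested, 0 passed an adjusted p under 0.05 in the contrast of days 28 and 1 or in that of lactation and prepartum, as did 0 of 5280 clones (0%) in each. At an unadjusted p under 0.05, GSTK1 was called lower on day 1 than on day -30, which 7.12% of all clones were. It was also called higher on day 28 than on day 1, which 5.17% were, and lower in lactation than prepartum, which 2.48% were. For the day effect GSTK1 was among the 5.23% of clones with an unadjusted p under 0.05. GSTZ1 was called in none of these. The unadjusted calls of GSTK1 were lost in 7 of 21 alternatives for day 1 against day -30 (p up to 0.386, with liver in Cy5 only), in 10 of 21 for day 28 against day 1, in 11 of 21 for lactation and in 10 of 20 for the day effect. Over all clones the median difference was -0.06 (day 1 minus day -30), 0.06 (day 28 minus day 1) and -0.01 (lactation minus prepartum), and 57.1% of clones lay below 0 in the first. The medians of GSTK1 and GSTZ1 were -0.16, 0.34 and -0.17. The half-width of the 95% interval in the same 3 contrasts was 0.32, 0.32 and 0.21 for GSTK1 and 0.40, 0.40 and 0.27 for GSTZ1, against a median clone at 0.49, 0.49 and 0.32.

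**Figure D4:**
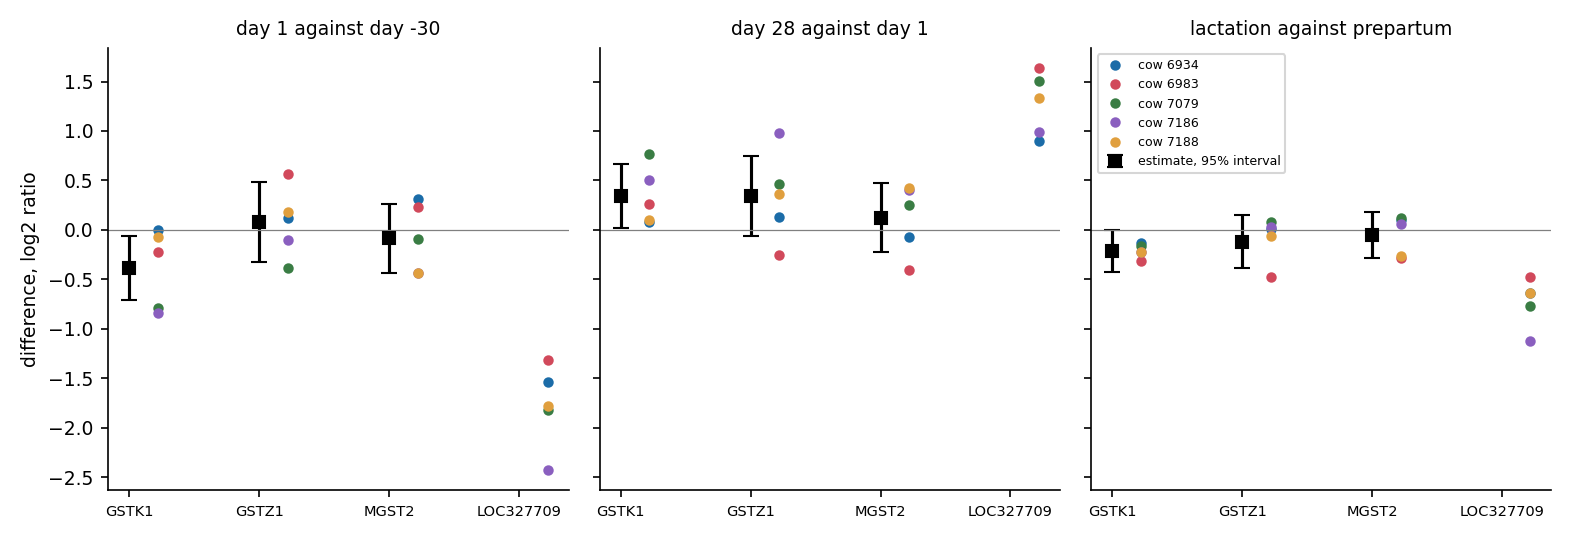
Differences in log2 ratio between days for GSTK1, GSTZ1, MGST2 and LOC327709, with black squares and bars for limma estimates and 95% intervals and coloured points for single cows. LOC327709 has points only, since it was selected on these days. All 5 cows of LOC327709 lie below -1.3 for day 1 against day -30, and the 5 cows of GSTK1 lie between -0.84 and 0.

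Likeness to LOC327709 was measured as Pearson's r over the 30 cow-days after each cow's mean was taken off, among 4965 clones measured in every cow-day. All clones of a cow-day share the same pair of arrays, and the median clone had r = 0.03. GSTK1 had r = 0.79 and stood 4th of 4965 clones (0.0806% as high or higher). GSTZ1 had r = 0.30 and stood 902nd (18.2% as high or higher). The exchanged arrays of a pair gave poorly matching values for either gene, with r between orientations of 0.07 for GSTK1 and 0.16 for GSTZ1, against 0.13 for the median clone. For GSTK1 3177 of 5280 clones were as high or higher. Within single cows the r of GSTK1 ran from 0.41 to 0.88 over 5 to 7 days, and that of GSTZ1 from -0.18 to 0.67.

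The likeness of GSTK1 was lower when the clones came from different arrays. With both clones on the same single array r was 0.70 (liver in Cy3) and 0.67 (liver in Cy5). With LOC327709 on the Cy3 array and GSTK1 on the exchanged Cy5 array r was 0.24, and the other way round 0.44, a mean of 0.34 that ranked 67th of 4965. For GSTZ1 the exchanged arrays gave -0.06 and 0.22, and the same single arrays 0.36 and 0.31. LOC327709 against itself on the exchanged array had r = 0.53. The width of the ratios differed between cow-days, by a slope on the mean profile of 0.589 to 1.36 on day -30. That slope correlated over cow-days at 0.36 with LOC327709, 0.60 with GSTK1 and 0.42 with GSTZ1. With each cow-day divided by its slope, the likeness of GSTK1 was 0.30 (1109th) and that of GSTZ1 was 0.04, while the LOC327709 difference of day 1 from day -30 was -1.96.

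**Figure D5:**
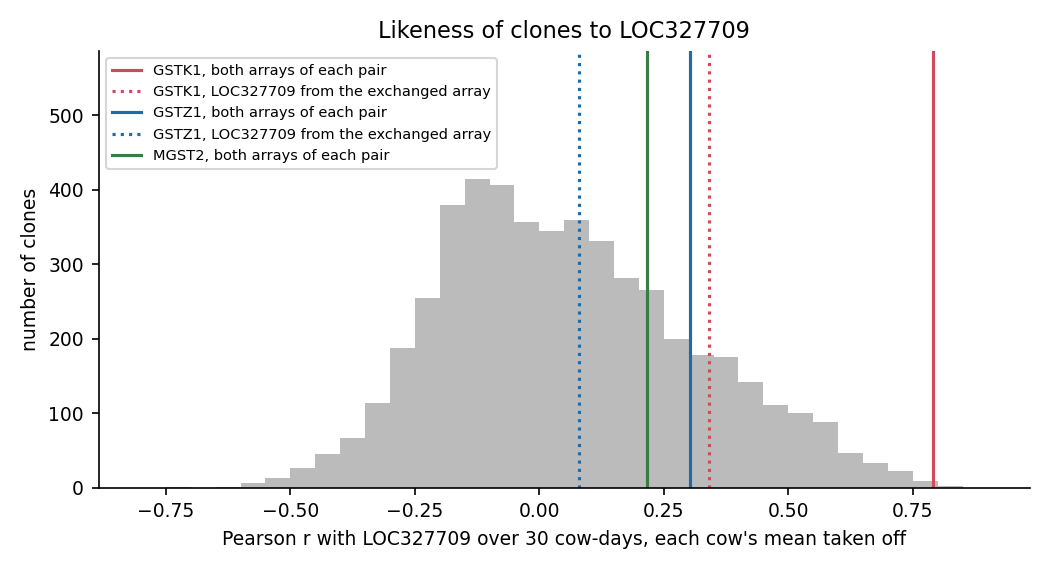
Number of clones (grey bars) by Pearson's r with LOC327709 over 30 cow-days of the larger table, each cow's mean taken off. Solid lines mark GSTK1 (0.79), GSTZ1 (0.30) and MGST2 (0.22) on averaged pairs, and dotted lines mark GSTK1 (0.34) and GSTZ1 (0.08) when LOC327709 was taken from the exchanged array, as the mean of both ways. The dotted values rest on single arrays and the grey bars on averaged pairs.

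The clones most like LOC327709 by r were IGFBP3, a carrier of insulin-like growth factors in blood (0.84), C1QC, a chain of complement C1q (0.83), GAMT, the last enzyme of creatine synthesis (0.80), GSTK1 (0.79) and ASS1, a urea cycle enzyme (0.79). IGFBP3 differed by -1.53 between day 1 and day -30 (limma adjusted p = 0.130) and this C1QC clone by -1.16 (0.449). Another C1QC clone had r = 0.70 and stood 36th. The partner chains C1QA and C1QB had r of 0.46 and 0.39 and differed by -0.09 and -0.24 between these days. Across exchanged arrays IGFBP3 stood 1st (mean r 0.54), the C1QC clone with r = 0.83 stood 8th (0.44), GAMT 128th and ASS1 211th. The lowest r belonged to PLOD2, a collagen lysyl hydroxylase (-0.71), SERGEF (-0.65), the integrin chain ITGA3 (-0.60), TTC5 (-0.59) and ALKBH6 (-0.57). PLOD2 stood 0.59 higher on day 1 than on day -30 (limma adjusted p = 0.324).

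Proteins of the transferase fold or of the membrane-bound transferase family that fall outside the 4 members were a list of 24 genes, 8 of them tested. None passed an adjusted p under 0.05 in limma for the day effect or any of the 3 contrasts, and 0 had an unadjusted p under 0.05 for the day effect (all clones 5.23%). On day 1 against day -30, 2 lay above 0 and 6 below (all clones 57.1% below), with a median of -0.14. MGST2, a microsomal glutathione transferase, gave -0.09 ± 0.17 (SE, adjusted p = 0.897), and its r with LOC327709 was 0.22. CLIC1, a chloride channel protein with the transferase fold, gave -0.57 ± 0.30 (SE, adjusted p = 0.630). PTGES, a prostaglandin E synthase, gave -0.0046, AIMP2 0.10 and EEF1E1 -0.31.

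Of 50 genes of glutathione synthesis and turnover, 20 were tested and 0 passed the adjusted threshold, with 2 at an unadjusted p under 0.05 for the day effect (all clones 5.23%). On day 1 against day -30, 7 lay above 0 and 13 below (all clones 57.1% below), with a median of -0.12. PRDX6, a peroxiredoxin that uses glutathione, gave -0.48 ± 0.16 (SE, limma adjusted p = 0.439). AHCY, which hydrolyses S-adenosylhomocysteine on the way to cysteine, gave -0.74 ± 0.33 (SE, limma adjusted p = 0.581). Their r with LOC327709 was 0.62 and 0.74. GPX1, a glutathione peroxidase, gave 0.02, and ME1, which makes NADPH, gave 0.06.

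Of 36 genes listed for NRF2, a transcription factor known for switching on glutathione transferases in rodents, 18 were tested. NFE2L2, the gene of NRF2 itself, and KEAP1, its repressor, were among them, so not all are targets. Of the 18, 0 passed the adjusted threshold, and 3 had an unadjusted p under 0.05 for the day effect (all clones 5.23%). On day 1 against day -30, 3 lay above 0 and 15 below (all clones 57.1% below), with a median of -0.19. TKT, transketolase, gave -0.83 ± 0.25 (SE, limma adjusted p = 0.377) and then stood 1.20 ± 0.25 above day 1 on day 28 (SE, adjusted p = 0.102). SQSTM1, an autophagy receptor, gave -0.31 ± 0.13 for day 1 against day -30 (SE, adjusted p = 0.560), the exporter ABCC3 gave -0.01 and ferritin FTH1 gave -0.02.

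Of 60 genes of drug metabolism, 9 were tested and 0 passed the adjusted threshold, with 2 at an unadjusted p under 0.05 for the day effect (all clones 5.23%). On day 1 against day -30, 2 lay above 0 and 7 below (all clones 57.1% below), with a median of -0.21. AOX1, aldehyde oxidase, gave -1.50 ± 0.48 (SE, limma adjusted p = 0.394) at a mean log2 ratio of 3.81. ALDH2, an aldehyde dehydrogenase, gave -0.68 ± 0.32, and the sulfotransferases SULT1A1 and SULT1E1 gave -0.44 ± 0.26 and -0.20 ± 0.26 (SE, adjusted p from 0.587 to 0.852).

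Markers of liver cell types were read in the same contrasts. Of 12 Kupffer cell and macrophage markers 9 were tested. On day 1 against day -30 they had 1 above 0 and 8 below (all clones 57.1% below), with a median of -0.41. Their mean level per cow ran from 1.04 to 1.47 on day 1 and from 1.21 to 2.56 on day -30. In lactation against prepartum 9 of 9 lay below 0, with a median of -0.47, against 52.2% of all clones below 0. Of the 7 stellate cell and fibroblast markers tested, 1 lay above 0 and 6 below on day 1 against day -30 (all clones 57.1% below). Their median was -0.74. In lactation against prepartum 5 lay above and 2 below (all clones 52.2% below), with a median of 0.09. On day 1 against day -30 the 4 hepatocyte markers tested lay 2 above and 2 below (all clones 57.1% below). Their mean levels were 1.25 to 1.81 on day 1 and 1.27 to 2.48 on day -30. In that contrast the median was -0.11 for 6 cholangiocyte, -0.10 for 5 endothelial and -0.11 for 3 lymphocyte markers. Of 6 erythroid markers 0 were listed. No marker passed an adjusted p under 0.05 in limma. In such whole-tissue samples fewer cells of a type and less RNA per cell cannot be told apart. The part of these markers in the values of LOC327709 or GSTK1 was not tested.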

How the data were processed

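The authors deposited log2 ratios between the 2 dye channels of every cDNA array. Per the labels, images came from a Scanarray 4000 and were quantified with GenePix 4.0. How the background and the scale were treated is not given in the sources used here, and without intensities no signal over background could be set.

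Each of 60 arrays of the larger table (16416 rows) was centred on its median. Arrays with liver in Cy3 were turned, the 2 spots of a clone averaged, and the exchanged pair averaged, which requires both. The 8 arrays of the smaller table (16896 rows) were scaled alone and did not enter the main fit. They entered only the alternative fit with both tables joined. Gene symbols came from the platform annotation, updated by gene identifier for 5591 of 5693 clones. A further 5030 rows without a listed gene were left out.

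A clone needed values of 3 cows on each day, which kept 5280. The fit was limma 3.58.1 in R 4.3.3 with day and cow terms, 19 residual degrees of freedom and Benjamini-Hochberg adjustment over all clones. Cow entered as a block since each animal was sampled on several days. The fit was tested on simulated data.

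All members are named, with the 5 clones most and least like LOC327709 and up to 4 genes of each list by smallest p of the day effect. C1QC also belongs to the macrophage list, and ASS1 to the hepatocyte list. ME1, TXNRD1 and TALDO1 belong to both the glutathione and the NRF2 list. MGST2 falls outside this rule and was added after its values were seen, as a membrane-bound transferase. Members and lists were chosen with earlier results of these data known. The number of arrays limits the precision. Alternatives covered centring, scale, cow block, cows, dyes, spots, missing values, tables, days and array weights.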

Additional observations from a re-analysis of the deposited data

Results flagged for a closer look

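In GSTZ1, the difference of lactation against prepartum in cow 6983, which has no day 49, was -0.48, far from the other 4 cows. Of 29 groups of values examined, this 1 held a cow that stood apart by Dixon's criterion, and chance alone marks about 1 in 20. The difference fitted by limma in GSTZ1 was 0.02 without cow 6983, against -0.12 with it.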

How the results depend on the processing

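The 3 LOC327709 differences kept their sign under all 21 alternatives. LOC327709 was selected on these days in the same arrays, so nothing is read from that. Several alternatives, such as that without the cow block, left day 1 against day -30 unchanged by construction, since both days hold every cow. Leaving out 1 cow at a time gave -1.89 to -1.61 for day 1 against day -30, 1.18 to 1.37 for day 28 against day 1 and -0.83 to -0.61 for lactation against prepartum. Scaling arrays to 1 median absolute deviation gave -3.70 and 2.24 in the first 2, in units of that deviation. Scaling cow-days on the mean profile, chosen after seeing the data, gave -0.43 for lactation. GSTK1 kept its sign throughout, but for lactation it was -0.072 without centring and -0.117 without the cow-days whose arrays did not oppose, and for day 1 against day -30 it was -0.235 with liver in Cy5 only. GSTZ1 turned for day 1 against day -30 to -0.14 with liver in Cy3 only, and lay between -0.048 and 0.19 leaving out 1 cow. For lactation it turned to 0.025 without centring and 0.13 without the cow-days whose arrays did not oppose, and lay between -0.22 and 0.016 leaving out 1 cow. The median of GSTK1 and GSTZ1 for lactation was -0.023 without centring and 0.0043 without those cow-days. Array weights called both genes for the day effect (2 of 2, by either estimate). All clones called were then 1026 for the day effect, 84, 81 and 26 for the 3 contrasts by residual maximum likelihood, and 176, 50, 48 and 0 gene by gene, an estimate added after seeing the data. The cause was not tested. Without the cow block the LOC327709 differences were -1.78, 1.27 and -0.71, the GSTK1 differences -0.39, 0.34 and -0.18, and 0 clones were called for the day effect. For the day effect all clones called were 0 also without centring, with scaling of arrays or cow-days, without any 1 cow, with liver in Cy5 only and without the cow-days whose arrays did not oppose, and 2 on the second spot. For day 1 against day -30 they were 10 with arrays scaled, 2 on the second spot, and 0 without cow 7188, with Cy5 only, with cow-days scaled and with only the days compared. For day 28 against day 1 they were 6 with Cy3 only and 1 without cow 6934.

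Likeness of GSTK1 was 0.92 over the 7 day means, 0.75 as Spearman's rho, 0.61 in residuals after day and cow, and 0.75 to 0.83 leaving out 1 cow. For GSTZ1 these were 0.49, 0.23, 0.072 and 0.27 to 0.36. Chosen after seeing the data, scaling cow-days gave 0.30 and 0.044, and exchanged arrays 0.24 and 0.44 for GSTK1 and -0.064 and 0.22 for GSTZ1.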
